A study of Mus musculus with 6 samples.

Results

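The complement system and its lectin pathway were examined in liver through 35 genes that encode complement components, regulators, receptors and the pentraxins Crp and Apcs. A member was taken from the array through the probe set whose platform annotation names that gene alone (by rule, the one of highest average where there are several). This gave 33 of the 35 members, each with 1 probe set, among 19938 genes measured. C3 and Cfd were not analysed here. The choice by highest average was thus not needed, and no measured value decided which probe set stood for a member.

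The 6 arrays held whole-liver RNA from C57BL6 mice, an inbred strain, that were male and 10 weeks old. All animals were fasted for 16 h and then injected intraperitoneally. The 3 control arrays came from animals given saline and the 3 others from animals given 100 ng of interleukin-6 (IL-6) each, with livers taken at 1 h. The labels do not say that each array came from its own mouse, so the p-values below measure the spread between these samples. The 8 hepatocyte markers measured all lay among the brightest probe sets, the dimmest of them, Hnf4a, at percentile 98.5 of the level over all genes.

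Complement is a set of plasma proteins that act as a cascade of proteases. It is started by C1q bound to antibody or to pentraxins (classical pathway), by collectins and ficolins bound to sugars on microbes (lectin pathway), or by slow spontaneous activation (alternative pathway), and it ends in a membrane pore. Hepatocytes make most of these plasma proteins, whereas C1q and properdin come largely from macrophages and other myeloid cells. The short pentraxins, encoded by Crp and Apcs, are pattern-recognition proteins that the liver secretes. In mice serum amyloid P component, the product of Apcs, is the pentraxin known for a strong acute-phase response, while C-reactive protein, the product of Crp, responds little.

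One hour after IL-6, no complement member was called higher or lower (limma adjusted p under 0.05 over 19938 genes, 0 of 33), where the same test called 0.421% of all genes, 0.386% higher and 0.0351% lower. The member nearest to a call was Apcs, at 1.47-fold (95% interval 1.25 to 1.73) with a limma adjusted p of 0.0787, followed by Crp at 1.24-fold (1.07 to 1.45) with 0.486. The lowest difference was that of C9, the pore-forming component, at 0.876-fold (0.697 to 1.10). The 95% intervals of 32 of the 33 members lay within 1.5-fold in either direction, and that of Apcs lay within 2-fold. Over all genes 19364 of 19938 intervals lay within 1.5-fold and 19843 within 2-fold, so such bounds are not particular to the members. These intervals bound the differences that the arrays leave possible, and a missed threshold does not show that the groups were equal. The livers had responded to the cytokine: Saa2, an acute-phase gene, had log2 means of 6.44 ± 0.30 after saline and 10.77 ± 0.32 after IL-6, and Socs3, a feedback inhibitor of IL-6 signalling, 6.40 ± 0.22 and 9.55 ± 0.09 (SD, n = 3 per group).

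Most differences were small and more of them were positive than negative. Of 33 members 22 had a positive and 11 a negative difference, where 51.1% of all genes had a positive one. The median difference of the members was 0.06 on the log2 scale, beside 0.003 over all genes. In 19 of 33 members the difference was smaller than 0.1 in size. Over all genes this held for a larger share, 13292 of 19938. At an unadjusted limma p under 0.05, 4 members (Apcs, Crp, Mbl1 and C1qb) were higher and 0 were lower, beside 3.78% and 2.83% of all genes. In 7 members (Apcs, Crp, Cfb, Cfp, C8g, Clu and C3ar1) all IL-6 values lay above all saline values, and in 0 members all lay below, beside 6.15% and 5.48% of all genes. No test was made of the members as a list, and they are not independent of each other, so these shares describe these arrays. With 3 arrays a side, 0.1 is the smallest p that exact permutation of the labels could return for any single member.

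**Figure D1:**
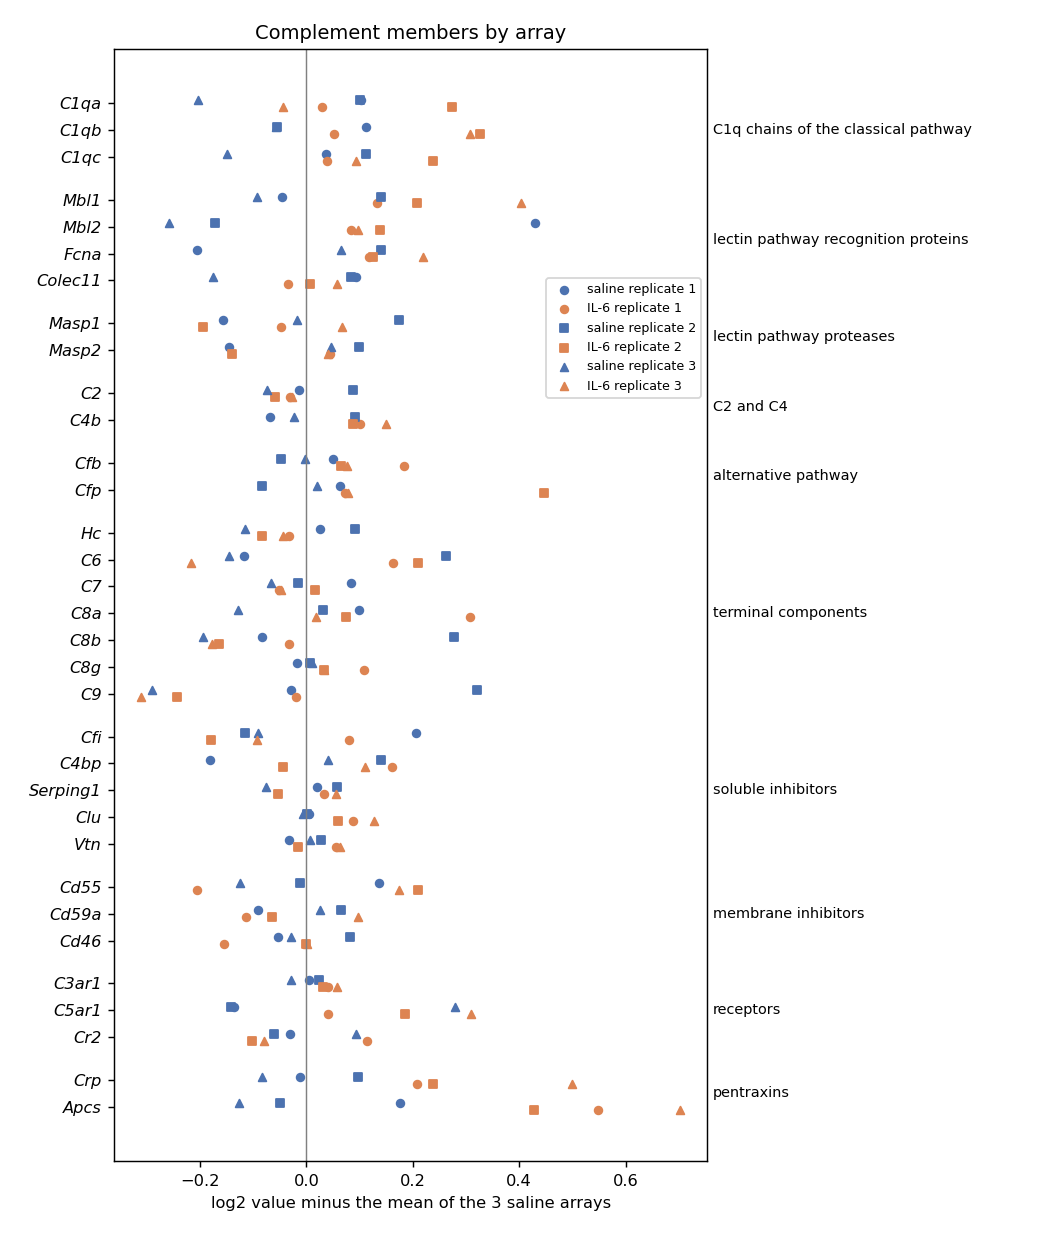
Log2 value of each of the 33 members on each array minus the mean of the 3 saline arrays (x axis), with members in rows by role (blue, saline; orange, IL-6; circle, square and triangle for replicates 1, 2 and 3). The IL-6 values of Apcs and Crp lie to the right of their saline values, while in most other rows the colours mix.

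The pentraxins stood at the top of the list by size. Their promoters are shown because these are the members with the largest differences and because IL-6 is known to act on acute-phase genes through STAT3, together with C/EBP factors. The stretches are the 250 bases before the annotated transcript start, from RefSeq on GRCm38.p6, read 5′ to 3′ on the gene's strand. Capitals mark matches on either strand to the letters TTCNNNGAA (a STAT site), TTNNGNAA (a C/EBP-like site) or GGG and CC with 5 bases of any kind between them (an NF-kappaB-like site); the last 2 matches in Crp overlap each other.
Apcs, chr1:172895055-172895304, minus strand: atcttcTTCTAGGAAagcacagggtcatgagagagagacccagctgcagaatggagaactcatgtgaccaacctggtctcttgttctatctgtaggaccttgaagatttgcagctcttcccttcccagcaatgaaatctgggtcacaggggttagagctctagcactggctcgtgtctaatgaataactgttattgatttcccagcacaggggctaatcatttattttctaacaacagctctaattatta
Crp, chr1:172697806-172698055, plus strand: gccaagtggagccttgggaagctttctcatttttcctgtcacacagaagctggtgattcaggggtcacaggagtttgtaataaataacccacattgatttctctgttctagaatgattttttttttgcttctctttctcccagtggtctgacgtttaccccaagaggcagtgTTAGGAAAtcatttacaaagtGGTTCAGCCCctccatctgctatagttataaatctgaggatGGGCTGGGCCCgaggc

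The capitals in Apcs are 1 match to the STAT letters, TTCTAGGAA, from 244 to 236 bases before the start. Crp has no match to the STAT letters in its window and 1 to the C/EBP-like letters, TTAGGAAA, from 78 to 71 bases before the start. Its other capitals are 3 matches to the NF-kappaB-like letters. Of the 33 members, 25 had a promoter in the table. A match to the STAT letters stood in 5 of these 25 (Colec11, Masp2, C7, C8a and Apcs) and in 8.13% of 27025 genes with a promoter. The C/EBP-like letters stood in 9 of 25, beside 40.3% of all, and the NF-kappaB-like letters in 9 of 25, beside 48.7%. Both are short, loose patterns that many promoters hold by their base composition. None of the 5 members with STAT letters passed the test, and beside that of Apcs (0.56) their differences were 0.01 for Colec11, -0.02 for Masp2, -0.03 for C7 and 0.13 for C8a. Matches are letters in a window, not measured binding, and say nothing of sites outside it.

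Apcs (probe set 10360328) read 8.02, 7.79 and 7.71 on the saline arrays and 8.39, 8.27 and 8.54 on the IL-6 arrays (log2 values, replicates 1 to 3). All IL-6 arrays lay above all saline arrays. The means were 7.84 ± 0.16 and 8.40 ± 0.14 (SD, n = 3 per group), which lie 0.56 ± 0.10 apart on that scale (limma estimate ± standard error; adjusted p = 0.0787). By p-value Apcs was rank 101 of 19938 genes, of which the first 84 were called. In the 11 alternative settings that can change the estimate (other normalizations, array weights and arrays left out) the difference ran from 0.46 to 0.65, and the other 8 leave it as it is. Its adjusted p was under 0.05 in 4 of the 18 settings that give a p of their own and from 0.05 upwards in 14. It ran from 0.0243 with a robust variance prior that follows the mean level to 0.566 without saline replicate 2 and IL-6 replicate 3, an alternative chosen after seeing the data because those arrays stand apart. Leaving out saline replicate 1 gave 0.0498, and leaving out any other single array gave 0.108 to 0.296.

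**Figure D2:**
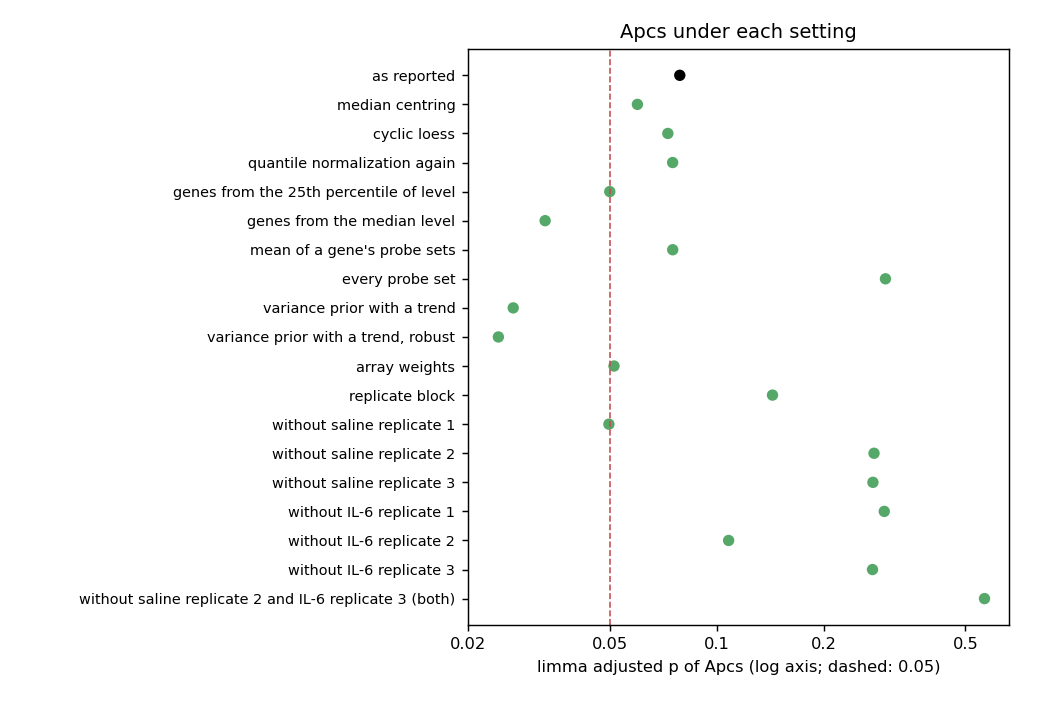
Limma adjusted p of Apcs (x axis, log scale) as reported (black) and under each alternative setting (green), with the threshold of 0.05 dashed. The reported value of 0.0787 lies to the right of the threshold, 4 settings lie to its left, and the value farthest to the right is that without 2 arrays together.

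Crp (probe set 10351852) read 10.50, 10.61 and 10.43 on the saline arrays and 10.72, 10.75 and 11.02 on the IL-6 arrays. Every IL-6 array was higher than every saline array, and IL-6 replicate 3 was the highest of all, as it was for Apcs. The log2 difference was 0.31 ± 0.10 (limma adjusted p = 0.486). In the 11 settings that can change it, it ran from 0.22 to 0.37, and over all 19 the limma adjusted p ran from 0.254 to 0.754. Averages by array also parted narrowly for all 33 members, both pentraxins included (saline up to 0.05, IL-6 from 0.06). For the members other than the pentraxins they overlapped, with saline replicate 2 above every IL-6 array. Those of the lectin pathway recognition proteins (up to 0.07, from 0.08) and the alternative pathway genes (up to 0.06, from 0.08) parted narrowly too. So did those of the 10 stellate cell and fibroblast markers (up to 0.0470, from 0.0477). Averaged over both pentraxins, the IL-6 arrays stood 0.38, 0.33 and 0.60 above the saline mean, and the saline arrays lay at 0.08, 0.02 and -0.11. Ptx3, a pentraxin made outside hepatocytes and listed with the further pathway genes below, had a difference of 0.04 ± 0.12 (limma adjusted p = 0.977). Its probe set was dim, at percentile 19.8 of the level over all genes. At such a level the deposited values do not separate signal from background.

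The 3 chains of C1q, the antibody-binding subunit that opens the classical pathway, had positive differences that did not pass. C1qa read 7.11, 7.11 and 6.80 after saline and 7.04, 7.28 and 6.96 after IL-6, a difference of 0.09 ± 0.11 (limma adjusted p = 0.957). C1qb read 6.90, 6.73 and 6.73 after saline and 6.84, 7.11 and 7.09 after IL-6, a difference of 0.23 ± 0.10 (limma adjusted p = 0.716). C1qc read 6.81, 6.88 and 6.62 after saline and 6.81, 7.01 and 6.86 after IL-6, a difference of 0.12 ± 0.09 (limma adjusted p = 0.906). In all 3 chains the groups overlapped, IL-6 replicate 2 was the highest array and saline replicate 3 the lowest.

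Macrophage markers, set beside the C1q chains, ranked the arrays at both ends alike. Of 15 markers of Kupffer cells, the resident macrophages of the liver, and other macrophages, 13 had positive differences, 0 were called and the median difference was 0.10. As averages above or below the saline mean, the markers gave 0.06, -0.004 and -0.06 on the saline arrays and -0.01, 0.25 and 0.04 on the IL-6 arrays. The C1q chains averaged 0.08, 0.05 and -0.14 on the saline arrays and 0.04, 0.28 and 0.12 on the IL-6 arrays. In both, IL-6 replicate 2 was highest and saline replicate 3 lowest. Some other lists shared 1 of these ends. Saline replicate 3 was also lowest for all 33 members (-0.06) and the stellate cell and fibroblast markers (-0.03). IL-6 replicate 2 was also highest for the neutrophil and monocyte markers (0.12). Positive differences were held by 8 of 10 stellate cell and fibroblast, 6 of 8 endothelial and 6 of 8 hepatocyte markers. They were fewer in adipocyte (4 of 7), neutrophil and monocyte (7 of 14) and B cell markers (3 of 7). Without IL-6 replicate 2, the array that stands highest, the differences were -0.007 for C1qa, 0.18 for C1qb and 0.07 for C1qc. Without saline replicate 3, the lowest, they were -0.02, 0.20 and 0.05. Leaving out the highest IL-6 array or the lowest saline array lowers a difference by construction. Whether the number of macrophages plays a part was not tested, and in whole tissue more cells of a type and more RNA per cell cannot be told apart.

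**Figure D3:**
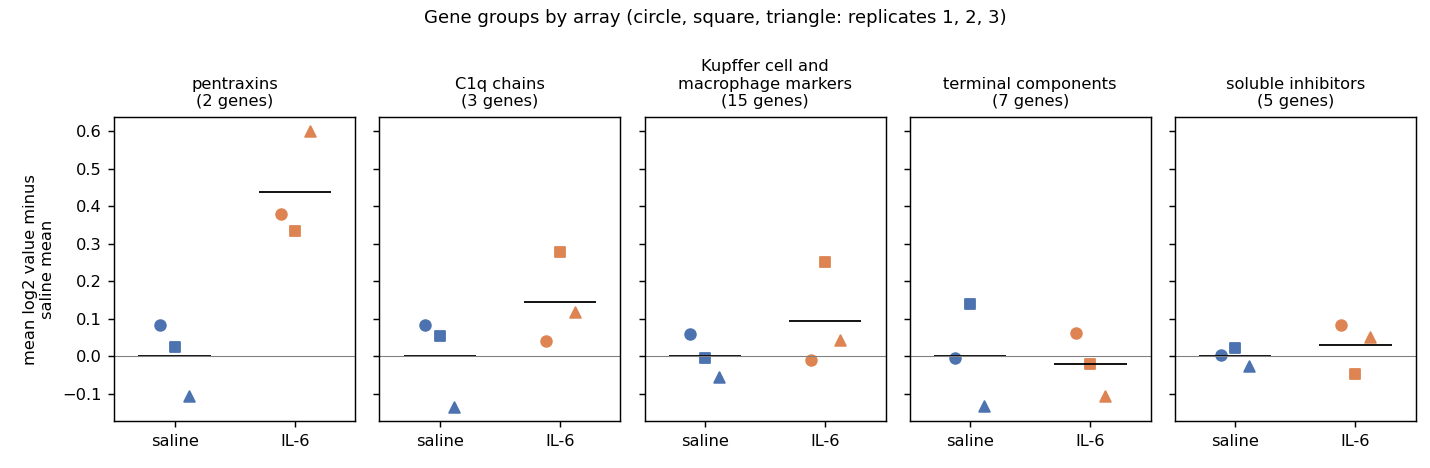
Mean log2 value minus the saline mean (y axis) of 5 gene groups on each array, with saline in blue, IL-6 in orange and the group mean as a line. The IL-6 arrays of the pentraxins lie at 0.33 to 0.60, above all saline arrays, while the groups overlap for the C1q chains, the macrophage markers, the terminal components and the soluble inhibitors, and IL-6 replicate 2 (square) is highest for both the C1q chains and the macrophage markers.

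Recognition proteins of the lectin pathway showed small positive differences. Mbl1, a mannose-binding lectin, read 8.57, 8.76 and 8.52 after saline and 8.75, 8.82 and 9.02 after IL-6. The groups overlapped, since saline replicate 2 stood just above IL-6 replicate 1, and the difference was 0.25 ± 0.10 (limma adjusted p = 0.680). Mbl2, the other mannose-binding lectin, read 10.70, 10.10 and 10.01 after saline and 10.35, 10.41 and 10.37 after IL-6. Saline replicate 1 stood above every other array, so that the difference of 0.11 ± 0.16 (limma adjusted p = 0.962) became 0.32 without that array (limma adjusted p = 0.370). The Mbl2 difference was 0.02 without saline replicate 2 and -0.02 without saline replicate 3. Fcna, which encodes a ficolin, had 0.15 ± 0.10 and Colec11, which encodes a collectin, 0.01 ± 0.09. Of the proteases that these lectins carry, Masp1 had -0.06 ± 0.10 and Masp2, which cleaves C2 and C4, -0.02 ± 0.09. None of these 6 genes passed the test.

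The substrates of those proteases differed little between groups. C2, which supplies the catalytic part of the classical and lectin convertase, had a difference of -0.04 ± 0.07. C4b, which encodes the component that anchors it, read 10.33, 10.49 and 10.37 after saline and 10.50, 10.48 and 10.55 after IL-6, a difference of 0.11 ± 0.08 (limma adjusted p = 0.891). Only saline replicate 2 reached into the IL-6 range. C4a, a close copy of C4b, had 0.07 ± 0.08, and whether probes of either gene also bind the other's RNA was not tested.

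Of the alternative pathway, Cfb and Cfp could be read. Cfb, which encodes the protease factor B and is known as an acute-phase gene, read 11.60, 11.50 and 11.54 after saline and 11.73, 11.61 and 11.62 after IL-6. The groups did not overlap, but the gap was narrow, and the difference was 0.11 ± 0.07 (limma adjusted p = 0.893). Cfp, which encodes properdin, a stabiliser of the alternative convertase, read 6.50, 6.35 and 6.46 after saline and 6.51, 6.88 and 6.51 after IL-6. Here 1 array, IL-6 replicate 2, stood far above the other IL-6 arrays, which were within 0.02 of saline replicate 1. The difference of 0.20 ± 0.11 (limma adjusted p = 0.850) was 0.08 without it. IL-6 replicate 2 also had the highest average of the macrophage markers and of the neutrophil and monocyte markers. Whether this bears on Cfp was not tested.

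The terminal components, which assemble the membrane pore, had 3 positive and 4 negative differences, and none passed. Hc, the mouse gene of C5, read 11.02, 11.09 and 10.88 after saline and 10.96, 10.91 and 10.95 after IL-6, a difference of -0.05 ± 0.08 (limma adjusted p = 0.962). C9 read 10.05, 10.40 and 9.79 after saline and 10.06, 9.83 and 9.77 after IL-6, a difference of -0.19 ± 0.15 (limma adjusted p = 0.906). Saline arrays of C9 spread over a wider range than the group means lay apart, with saline replicate 2 at the top. The difference was -0.03 without saline replicate 2 and -0.34 without saline replicate 3.

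Differences of the C8 subunits had both signs. C8g, the lipocalin-like chain, read 10.56, 10.59 and 10.59 after saline and 10.69, 10.62 and 10.62 after IL-6, groups that did not overlap, with a difference of 0.06 ± 0.07 (limma adjusted p = 0.951). C8a had 0.13 ± 0.10 and C8b -0.12 ± 0.12, and whether these differ from each other was not tested. C6 had 0.05 ± 0.14. C7 had -0.03 ± 0.07, with a saline mean of 4.54 just under the 25th percentile of gene means (4.59), a level at which the deposited values do not separate signal from background.

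Among soluble inhibitors, all 5 differences were below 0.1 in size. Clu, which encodes clusterin, a chaperone that blocks pore assembly, had the smallest spread between saline arrays of all members. It read 11.74, 11.74 and 11.73 after saline and 11.82, 11.80 and 11.86 after IL-6. The groups did not overlap, yet the difference was 0.09 ± 0.07 (limma adjusted p = 0.904). Limma draws so small a spread towards that of all genes, which widens this standard error. Whether Clu would pass without that step was not tested. Vtn, which encodes vitronectin and had the highest level on the array scale among the members, read 12.41, 12.47 and 12.45 after saline and 12.50, 12.43 and 12.51 after IL-6, a difference of 0.03 ± 0.07 (limma adjusted p = 0.971). The differences were 0.01 ± 0.08 for Serping1, the C1 inhibitor, 0.08 ± 0.10 for C4bp, which binds C4b, and -0.06 ± 0.11 for Cfi, the protease that degrades C4b.

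Membrane inhibitors and receptors gave differences within 0.2. Cd55, which speeds convertase decay, had 0.06 ± 0.12, Cd59a, which blocks the pore, -0.03 ± 0.09, and Cd46, a cofactor of factor I, -0.05 ± 0.08. The probe set of Cd46 was dim, at percentile 28.5 of the level over all genes. C3ar1, the C3a receptor, read 5.69, 5.71 and 5.65 after saline and 5.72, 5.71 and 5.74 after IL-6, groups that parted only in the third decimal (0.04 ± 0.07, limma adjusted p = 0.963). C5ar1, the C5a receptor of neutrophils and macrophages, had 0.18 ± 0.12 and overlapping groups (limma adjusted p = 0.900). Cr2, the complement receptor of B cells, had the lowest level on the array scale among the members. It read 3.70, 3.67 and 3.83 after saline and 3.85, 3.63 and 3.65 after IL-6, below the 25th percentile, with a difference of -0.02 ± 0.09 (limma adjusted p = 0.983). Of the 14 neutrophil and monocyte markers measured, 9 lay below the 25th percentile, 7 had negative differences and 1, S100a8, was called higher. S100a8 itself stood at percentile 15.1, among these dim probe sets, and its partner S100a9 had a difference of -0.01. Of the 7 B cell markers 5 lay below it and 0 were called.

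**Figure D4:**
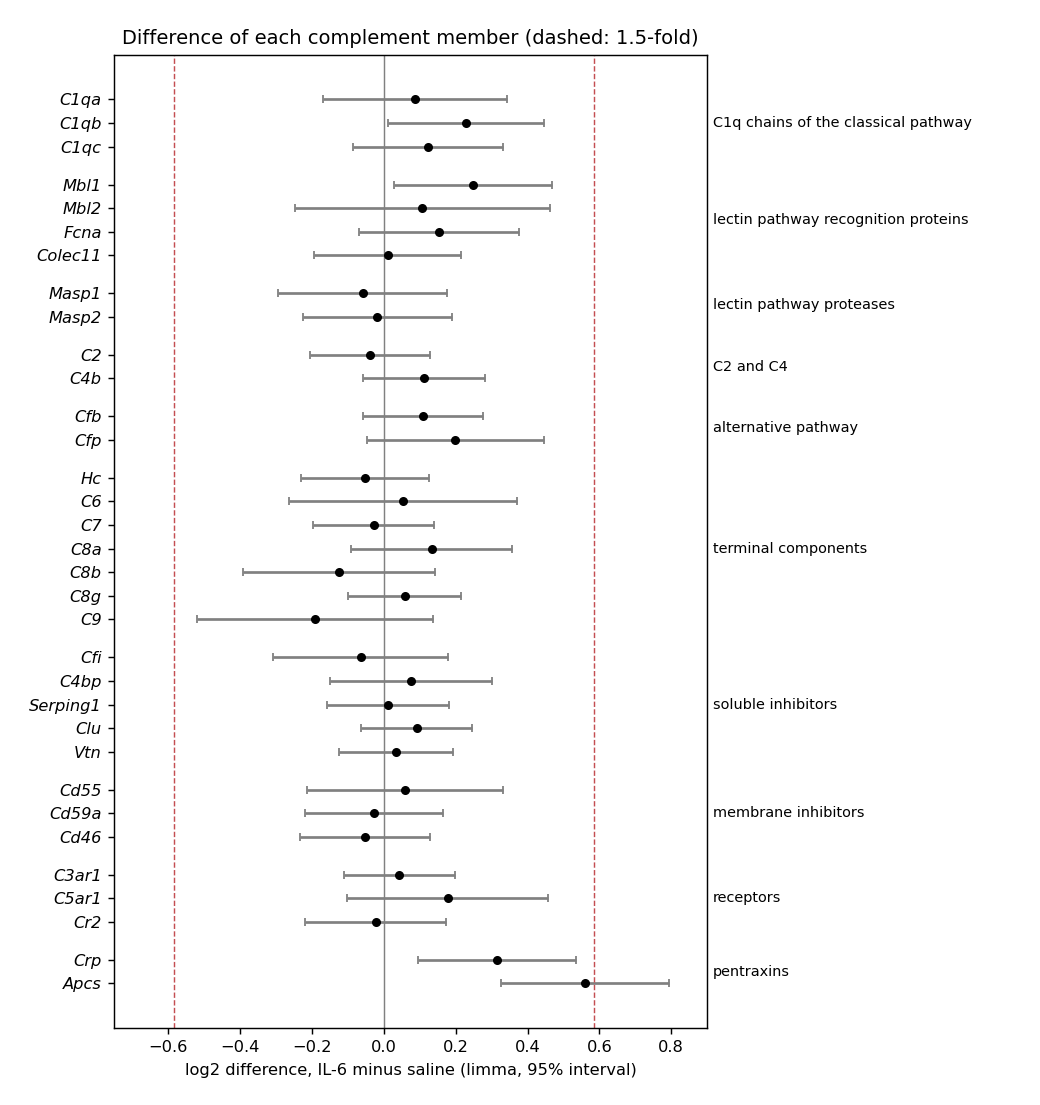
Log2 difference, IL-6 minus saline, of each member with its 95% interval from limma (x axis), in rows by role, with 1.5-fold in either direction dashed. The intervals of 32 members stay between the dashed lines, as do those of 19364 of all 19938 genes (not drawn). That of Apcs (0.33 to 0.79) crosses the upper one.

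Further complement genes gave the same count. Of 33 such genes listed by role, 26 could be read and 0 were called in either direction, with a median difference of 0.04 and a range from -0.09 to 0.21. At an unadjusted limma p under 0.05 there were also 0, beside the 3.78% higher and 2.83% lower of all genes. In this list the groups did not overlap in 1 gene upwards and 1 downwards, shares below the 6.15% and 5.48% of all genes. Itgax, a chain of an integrin that binds complement fragments, had means of 4.77 ± 0.20 after saline and 4.98 ± 0.02 after IL-6 (SD, n = 3 per group; difference 0.21 ± 0.10, limma adjusted p = 0.799). Colec10, a collectin that pairs with Colec11, read 6.87, 6.94 and 6.89 after saline and 6.79, 6.81 and 6.84 after IL-6 (-0.09 ± 0.07, limma adjusted p = 0.914). The classical proteases C1ra (0.01 ± 0.08) and C1s1 (0.03 ± 0.09) and the anaphylatoxin-inactivating carboxypeptidase chain Cpn1 (0.04 ± 0.07) differed by less than their standard errors.

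Arrays of a group also differed among themselves. Over all genes the second principal component, with 23.1% of the variance, separated saline replicate 2 and IL-6 replicate 3 from the remaining 4, and the labels name no batch. Saline replicate 2 was the highest saline array in 18 of 33 members, C6, C8b and C9 among them, and saline replicate 3 the lowest in 19. IL-6 replicate 3 was the highest IL-6 array in 15, Apcs, Crp and Mbl1 among them. Such counts were not made over all genes, so whether they are particular to the members was not tested. Without both arrays that stand apart, 0 members were called and the differences of Apcs and Crp were 0.46 and 0.27.

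Markers of further liver cell types showed 0 calls. Their median differences were 0.10 over 10 stellate cell and fibroblast markers, 0.04 over 8 endothelial markers, 0.04 over 7 adipocyte markers and 0.03 over the 8 hepatocyte markers. Those of the neutrophil and monocyte markers and of the B cell markers were 0.008 and -0.007.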

How the data were processed

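Biotin-labelled total RNA was hybridised to 1-colour Affymetrix arrays. Each probe set has 1 deposited value per array on the log2 scale, which the authors obtained by RMA, as the submitters' processing notes name it. Its version and settings, and a genome build, remain not given in the sources used here. RMA adjusts background, quantile-normalizes arrays and summarises probes, which can compress large changes and remove shifts common to most genes. Array medians lay between 5.42 and 5.48, and the number of arrays limits the precision (median standard error 0.089).

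Of 35556 probe sets, 21789 carried exactly 1 gene symbol, 1621 several, and 12146 were not listed. Per gene the probe set with the highest mean was kept, with no filter. IL-6 was compared with saline by limma 3.58.1 (R 4.3.3; lmFit, eBayes), two-sided, with Benjamini-Hochberg adjustment over 19938 genes and a threshold of 0.05. The fit was tested on simulated data. Levels of different probe sets are not comparable as amounts of RNA.

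Members, lists and tests were chosen with earlier results of these data known. Values by array were given for members whose groups did not overlap and for C4b, Hc, C9, Crp, Apcs, the C1q chains, Mbl1, Mbl2, Cfb and the members of highest and lowest level, and further complement genes were named where groups did not overlap or as a copy of a member; C1ra, C1s1, Cpn1 and Ptx3 were added outside this rule. Marker lists covered Kupffer cells and macrophages, neutrophils and monocytes, B cells, adipocytes, stellate cells and fibroblasts, endothelial cells and hepatocytes. Alternatives were other normalizations, level filters, probe set rules, variance priors, array weights, a replicate block, a threshold of 0.1 and leaving out arrays. Figures were drawn with matplotlib 3.10.9.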

Additional observations from a re-analysis of the deposited data

How the results depend on the processing

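In 19 alternatives, 18 of them listed before the fits were run though with earlier results known, 0 members were called lower, 0 further complement genes were called, and no member but Apcs was called (lowest limma adjusted p of another member 0.254). The count of members called higher became 1, which is Apcs, with genes from the median level upwards (limma adjusted p = 0.0329), with a variance prior that has a trend (0.0268), with that prior and robust fitting (0.0243) and at a threshold of 0.1 (0.0787). Leaving out single arrays gave 0 to 1, the 1 without saline replicate 1. The median difference of the members ran from 0.02 to 0.08. Of these settings 11 can change the estimate of a member and 8 cannot. Over those 11 the difference kept its sign in 16 members and changed it at least once in 17, none of which was called in any.

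Over all genes, 77 higher and 7 lower became 16 and 1 when every probe set was tested, and 12 were lower at a threshold of 0.1. Leaving out single arrays gave 45 to 67 higher and 3 to 5 lower genes, and leaving out saline replicate 2 and IL-6 replicate 3 together, chosen after seeing the data, gave 31 and 2. The cause was not tested. With every probe set both the number of tests and the prior degrees of freedom (2.56 in place of 5.28) differ. With the replicate number as a block Apcs had a limma adjusted p of 0.143 and 0 members were called. Same-numbered arrays deviated with correlations of 0.08, -0.12 and -0.09, beside -0.10 to 0.18 for arrays of different number. The deviations were taken from the mean of each group of 3. Such correlations cannot decide whether same-numbered arrays were handled together.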
